A study of Homo sapiens with 10 samples.

Results

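The claudins and the tight-junction proteins occludin and tricellulin were followed in A549, a long-established cell line from a human lung adenocarcinoma. The 10 genes were taken by name from the deposited count table, which held 33551 rows: 8 claudins (CLDN1, CLDN2, CLDN3, CLDN4, CLDN7, CLDN12, CLDN18 and CLDN23), OCLN for occludin and MARVELD2 for tricellulin. The table held 24 numbered claudin rows in all. No measured value entered the choice of the 10 genes by name, although they were listed with earlier results of these data known.

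RNA was sequenced from 5 A549 lines: wild type (WT), a line labelled as lacking ABCA3 (labelled KO), and lines with the ABCA3 variants L101P, E292V or E690K. ABCA3 is the lipid transporter that fills the lamellar bodies of alveolar type II cells with surfactant phospholipid. Each line gave 1 untreated library and 1 library after overnight exposure to a VSVG-pseudotyped lentiviral vector encoding ABCA3 with GFP at a multiplicity of infection of 20, so there were 10 libraries and 1 per line and treatment. Each genotype was 1 line, so a line's own history and its genotype cannot be told apart, and nothing in the labels says that the 2 libraries of a line came from separate cultures. The p-values below therefore weigh differences against the spread between these libraries, which may be technical. In the fit of line plus vector, that spread is how the change with the vector varied between lines. It thus includes any response to the vector that differs between lines. In bulk RNA, fewer cells of a kind and less RNA per cell cannot be told apart.

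Claudins are small membrane proteins that cross the membrane several times and bind one another across the gap between epithelial cells, which makes the strands of the tight junction. Some claudins seal the path between cells, as CLDN1 and CLDN3 do, and others form pores, as CLDN2 does for small cations and water. OCLN lies in the same strands, MARVELD2 marks the corners where 3 cells meet, and the scaffold proteins of the ZO family tie the strands to actin. In the lung, CLDN18 is the claudin most associated with the alveolar epithelium, where CLDN3 and CLDN4 are also found.

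The bases just before the starts of CLDN1, CLDN2 and CLDN3, the members highest per length, are shown so that the composition of 2 sealing claudins and a pore claudin can be compared. They are RefSeq windows on GRCh38.p14, printed 5′ to 3′ on the gene's own strand and cut where an exon of the gene begins in GENCODE release 29. Capitals mark matches on either strand to 4 motifs: the GC box (GGGCGG), the E-box bound by the SNAI and ZEB repressors (CACCTG), the grainyhead motif (AACCGGTT) and the ETS core (AGGAAG). CLDN1 and CLDN3 lie on the minus strand and CLDN2, which has 2 starts, on the plus strand.
CLDN1 chr3:190322476-190322696: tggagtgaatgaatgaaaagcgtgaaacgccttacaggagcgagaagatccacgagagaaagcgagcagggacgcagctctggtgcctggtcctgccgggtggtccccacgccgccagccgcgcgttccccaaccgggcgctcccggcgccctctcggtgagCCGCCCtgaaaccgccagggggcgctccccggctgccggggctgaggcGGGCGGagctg
CLDN2, first start, chrX:106899914-106900163: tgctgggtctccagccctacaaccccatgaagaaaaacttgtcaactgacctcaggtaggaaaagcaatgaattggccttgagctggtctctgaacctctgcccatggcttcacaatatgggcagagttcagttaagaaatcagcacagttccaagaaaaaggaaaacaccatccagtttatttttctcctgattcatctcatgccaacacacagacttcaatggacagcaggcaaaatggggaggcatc
CLDN2, second start, chrX:106918110-106918359: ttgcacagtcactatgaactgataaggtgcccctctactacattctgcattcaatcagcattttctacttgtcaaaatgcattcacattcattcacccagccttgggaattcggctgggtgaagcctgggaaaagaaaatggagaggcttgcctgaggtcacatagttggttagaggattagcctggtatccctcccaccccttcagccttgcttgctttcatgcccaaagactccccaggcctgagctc
CLDN3 chr7:73770271-73770520: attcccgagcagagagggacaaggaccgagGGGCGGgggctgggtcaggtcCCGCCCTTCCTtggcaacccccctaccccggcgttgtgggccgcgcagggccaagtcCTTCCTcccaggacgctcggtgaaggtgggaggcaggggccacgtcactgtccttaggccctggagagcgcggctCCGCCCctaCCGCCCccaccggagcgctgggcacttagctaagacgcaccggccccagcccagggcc
The CLDN1 stretch of 221 bases had a GC content of 69.7% and 2 GC boxes, and the CLDN3 stretch of 250 bases had 71.6%, 4 GC boxes and 2 ETS cores, of which 1 overlaps a GC box by its first letter. Both CLDN2 stretches of 250 bases were poorer in GC, at 46.0% and 48.8%, and held none of the 4 motifs. Over the whole 300-base windows, which add 50 bases after the start, 13 windows of 9 of the 10 genes were searched. CLDN23 was left out of this search. The OCLN windows, chr5:69492297-69492596 and chr5:69492540-69492839, overlap, so the 13 are not all separate promoters. A GC box was found in 7 of the 13 (45.0% of 35116 windows genome-wide), the E-box in 5 (20.6%), the ETS core in 9 (33.6%) and the grainyhead motif in 0 (0.134%). The window of CLDN7 at chr17:7262429-7262728 had 5 E-box matches. A match is a match of letters only.

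Before the line comparisons, the labels were checked against ABCA3 and the GFP row. Levels are CPM, a gene's counts scaled to a fixed library total. ABCA3 was at 601 CPM in the untreated library labelled KO and at 25.8 CPM in the transduced one, and the GFP row at 37.9 and 0.049 CPM, which goes against both labels. GFP was at 70.9 and 153 CPM in the untreated and then the transduced library of WT, 1.01 and 35.9 in L101P, 20.7 and 66.8 in E292V, and 16.3 and 18.0 in E690K, where the counting intervals overlapped. Untreated WT thus exceeded the transduced libraries of the 3 variant lines, and ABCA3 in L101P was at 1156 CPM untreated and 896 transduced, so GFP and ABCA3 do not separate the treatments across lines. The libraries labelled KO are called so throughout, and results resting on them were recomputed with their 2 treatment labels exchanged. Library totals ranged from 59430095 to 96811421 counts. The 6 epithelial markers, KRT7, KRT8, KRT18 and KRT19 among them, summed to 8034 to 14752 CPM, whereas the 8 alveolar type II markers summed to 1.40 to 2.27 CPM and each had a median under 1 CPM, with surfactant protein genes SFTPA1 and SFTPA2 at a median of 0.

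CLDN1 was the leading claudin transcript in every library. It averaged 90.2 CPM (SD 18.4, n = 10 libraries), and per kilobase of merged exons it stood at 24.6 CPM per kb, against 7.60 for CLDN3 and 6.69 for CLDN2. CLDN12, a widely expressed claudin without the usual scaffold-binding end, followed at 4.46 CPM per kb. CLDN23 (3.03), OCLN (2.93), MARVELD2 (2.07) and CLDN4 (1.61) formed a middle group. CLDN7, at 0.319 CPM per kb, and CLDN18, at 0.0735, closed the order. The ranges over libraries did not overlap between CLDN1 and CLDN3, CLDN12 and CLDN23, OCLN and MARVELD2, or CLDN4 and CLDN7, and the other neighbours in that order overlapped. The order depends on the gene length used: with the length of 1 principal transcript, CLDN12 moved to the second place at 8.43 CPM per kb and CLDN4 stayed eighth at 1.82. Of the summed level per kb of the 10 genes, CLDN1 made up 28.5% to 58.1%, lowest in the transduced L101P library and highest in the untreated E292V library.

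CLDN18, the claudin of alveolar epithelium, gave only 11 to 60 counts per library (0.14 to 0.63 CPM), and CLDN7 gave 18 to 140 (0.19 to 1.45 CPM). Their fitted differences between lines had standard errors of 0.51 for CLDN7 and 0.84 for CLDN18 in L101P against WT, the widest of the 10 genes there. The summed CPM of all 10 genes averaged 198.9 (SD 10.2, n = 10 libraries). The coefficient of variation over the 10 libraries was lowest for CLDN12 (7.28%), MARVELD2 (10.8%) and OCLN (11.3%). It was 15.6% for CLDN23, 20.4% for CLDN1, 28.3% for CLDN3, 42.4% for CLDN2 and 43.5% for CLDN4, and highest for the low-count CLDN7 (55.7%) and CLDN18 (55.6%).

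**Figure D1:**
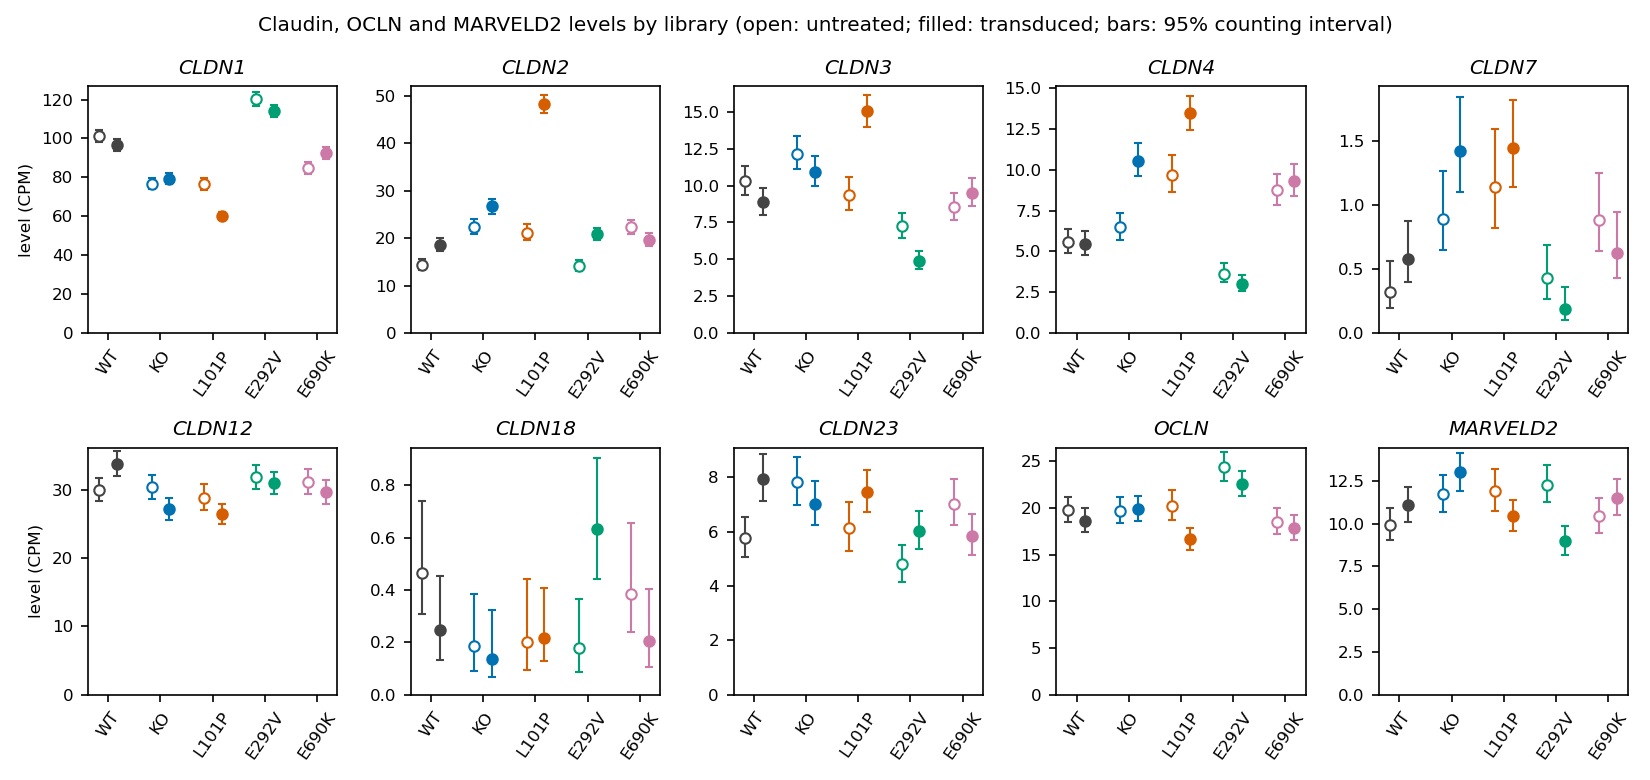
Level of each of the 10 genes in CPM on the vertical axis, 1 panel per gene, by line on the horizontal axis; open circles are untreated and filled circles transduced libraries, and bars are 95% counting intervals. CLDN2 stands at 48.2 CPM in the transduced L101P library, above the other 9 libraries, and CLDN4 lies between 3.00 and 13.4 CPM.

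A test of any difference among the 5 lines passed for 4 of the 10 genes (edgeR quasi-likelihood, Benjamini-Hochberg adjusted p under 0.05), against 13% of all 17978 genes tested. They were CLDN4 (adjusted p = 8.9e-04), CLDN1 (0.00187), CLDN2 (0.0257) and CLDN3 (0.0456). CLDN7 missed the threshold, with an adjusted p of 0.0548 (it passed in 8 of 21 alternatives, halved counts among them at 0.0451), and OCLN had 0.188. CLDN12, CLDN18, CLDN23 and MARVELD2 had values from 0.433 to 0.748, and did not pass. Over 21 alternative settings and left-out libraries, CLDN4 and CLDN1 passed in all 21, CLDN2 in 17 and CLDN3 in 12.

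CLDN4, a sealing claudin of surface epithelia, ranged most widely among the well-counted members. Giving the untreated library of each line first, it stood at 5.58 and 5.46 CPM in WT, 6.47 and 10.6 in the libraries labelled KO, 9.69 and 13.4 in L101P, 3.64 and 3.00 in E292V, and 8.74 and 9.30 in E690K. Both E292V libraries lay below all others, and both L101P libraries above WT. CLDN2, the cation pore, was at 14.3 and 18.6 CPM in WT, 22.3 and 26.7 in the libraries labelled KO, 21.2 and 48.2 in L101P, 14.2 and 20.8 in E292V, and 22.3 and 19.6 in E690K. The transduced L101P library was far above the rest, and the untreated one was close to the libraries labelled KO and to E690K. CLDN1, the abundant sealing claudin, went the other way. It was at 101.3 and 96.5 CPM in WT, 76.7 and 79.3 in the libraries labelled KO, 76.4 and 60.0 in L101P, 120.2 and 113.9 in E292V, and 84.8 and 92.3 in E690K. Both E292V libraries were above WT, and the other 3 edited lines were below it.

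Of the 4 edited lines against WT, L101P was the one in which members were called. CLDN4 rose by 1.09 on the log2 scale (SE 0.21, 95% interval 0.64 to 1.55, edgeR adjusted p = 0.0143) and CLDN2 by 1.07 (SE 0.23, adjusted p = 0.0235), while CLDN1 fell by 0.50 (SE 0.096, adjusted p = 0.0144). That made 2 of 10 genes higher and 1 lower, against 2.33% of all genes higher and 1.61% lower (3.94% in either direction). The median log2 fold change of the 10 genes was 0.079, against -0.014 over all genes tested. CLDN7 stood at 1.57 (SE 0.51, adjusted p = 0.120) and CLDN3 at 0.40 (adjusted p = 0.389), and neither passed. CLDN12, CLDN23, OCLN and MARVELD2 lay between -0.17 and 0.12, and the low-count CLDN18 stood at -0.71 (SE 0.84). The CLDN2 call rested on the transduced L101P library, without which the log2 fold change was 0.52 (adjusted p = 0.0852). It was also lost without the untreated (0.0806) or the transduced (0.123) WT library, and with the treatment labels of the pair labelled KO exchanged (0.0663). CLDN1 was lost without either WT library (0.0751 and 0.0715) and CLDN4 without the transduced one (0.119). The summed epithelial markers were also highest in the transduced L101P library, at 14752 CPM. That sum was mostly keratin RNA, with KRT8 alone at 3721 to 7719 CPM. EPCAM was instead highest in the transduced library labelled KO (22.2 CPM) and CDH1 in the untreated E292V library (36.4 CPM). The part of these markers in the claudin changes was not tested.

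**Figure D2:**
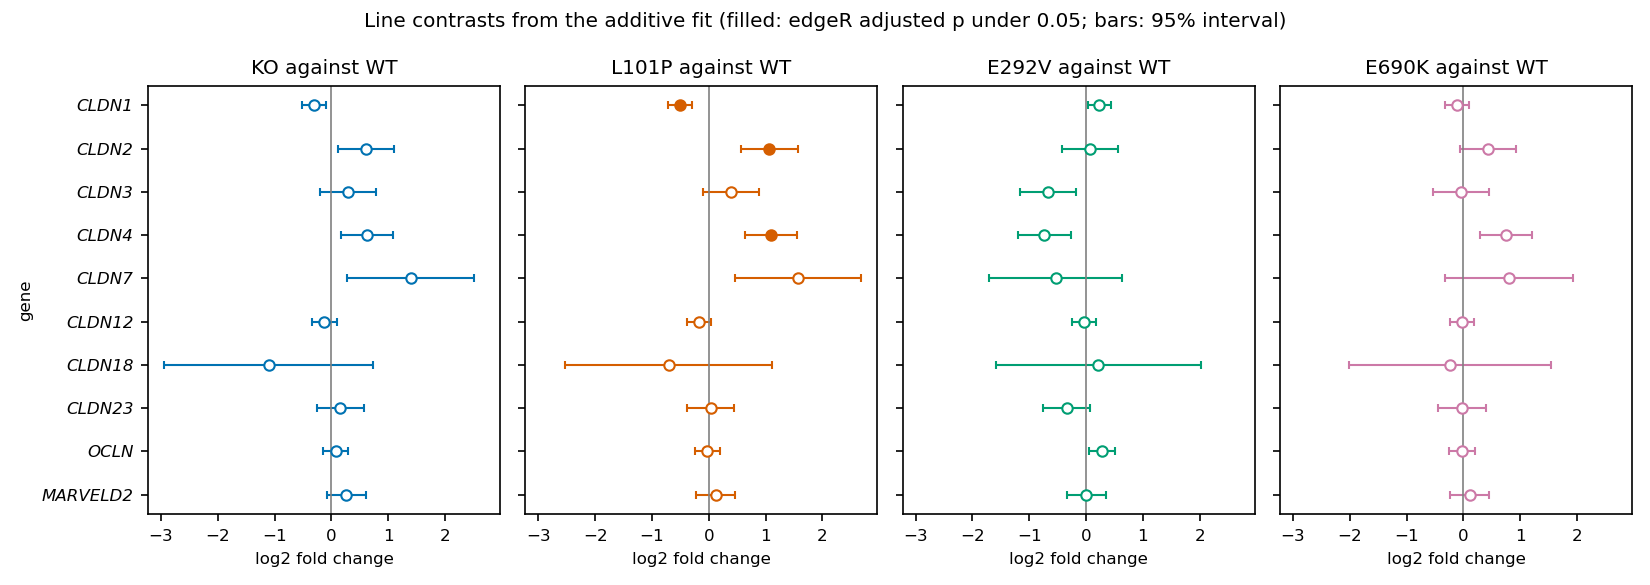
Log2 fold change of each gene on the horizontal axis for each edited line against WT, 1 panel per contrast; bars are 95% intervals and filled points passed an edgeR adjusted p of 0.05. Filled points are CLDN4, CLDN2 and CLDN1 in L101P.

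The other 3 edited lines shared the same 2 WT libraries as controls, and no member passed in any of them. In the line labelled KO 0 of 10 genes were called (edgeR, 1.8% of all genes, 0.807% higher and 0.99% lower), with 4 at an unadjusted p under 0.05 and a smallest adjusted p of 0.138. Its log2 fold changes were 1.39 for CLDN7, 0.63 for CLDN4, 0.61 for CLDN2, 0.29 for CLDN3, -0.31 for CLDN1 and -1.11 for the low-count CLDN18, with the other 4 between -0.12 and 0.26. In E690K 0 of 10 were called (5.38% of all genes, 3.05% higher and 2.33% lower), with 1 at an unadjusted p under 0.05. CLDN4 there stood at 0.75 on the log2 scale (SE 0.21, adjusted p = 0.0579), CLDN7 at 0.81, CLDN2 at 0.44, CLDN3 at -0.041, CLDN1 at -0.11 and CLDN18 at -0.23, with the other 4 between -0.027 and 0.11. In E292V 0 of 10 were called (1.05% of all genes, 0.295% higher and 0.756% lower), with 4 at an unadjusted p under 0.05 and a smallest adjusted p of 0.172. In E292V the log2 fold changes were -0.74 for CLDN4, -0.67 for CLDN3, -0.54 for CLDN7, -0.34 for CLDN23 and -0.031 for CLDN12, and 0.28 for OCLN, 0.24 for CLDN1, 0.22 for CLDN18, 0.070 for CLDN2 and 0.0045 for MARVELD2. DESeq2 called CLDN4 in E292V (2.39% of all genes called) and in E690K (8.14%). Without the L101P pair in the fit, 3 members passed in the line labelled KO (CLDN1, CLDN2 and CLDN4). In E292V 2 passed (CLDN3 and CLDN4), and in E690K 2 (CLDN2 and CLDN4). That fit called more of all genes too, at 6.34% in the line labelled KO, 3.89% in E292V and 11.2% in E690K.

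CLDN3, a sealing claudin encoded beside CLDN4 on chromosome 7, was at 10.3 and 8.87 CPM in WT, 12.2 and 10.9 in the libraries labelled KO, 9.37 and 15.0 in L101P, 7.24 and 4.90 in E292V, and 8.53 and 9.48 in E690K. Only the E292V pair lay below all other libraries. On GRCh38 with GENCODE release 29, CLDN3 is a single exon at chr7:73768997-73770270 on the minus strand and CLDN4 spans chr7:73799542-73832693 on the plus strand, with 29.3 kb between them. CLDN1 lies at chr3:190305701-190322475 and CLDN2 at chrX:106900164-106930861, where 10.0% of its exon length is shared with RIPPLY1 on the other strand. Shared exon length was 12.3% for CLDN7 and 17.7% for CLDN12, and OCLN has an unprocessed pseudogene, OCLNP1, elsewhere on chromosome 5, so the counts of these 4 genes are uncertain by the reads such neighbours or copies share.

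The positions of each line's 2 libraries relative to WT can be counted without a test. Of the 8 genes averaging at least 1 CPM, both libraries of the line labelled KO lay above both WT libraries for 4 (19.9% of all such genes) and below for 1 (28.8%). In L101P 2 lay above (17.8%) and 2 below (28.1%), in E292V 2 above (20.5%) and 2 below (20.3%), and in E690K 2 above (19.9%) and 2 below (37.4%).

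L101P is described in the literature as a trafficking variant and E292V and E690K as variants of transport function, so L101P was also set against the mean of the other pair. Here 4 of 10 genes were called, against 5.79% of all genes in either direction (3.75% higher, 2.04% lower). CLDN4 was higher by 1.09 in log2 terms (SE 0.18, edgeR adjusted p = 0.00396), CLDN2 by 0.81 (SE 0.19, adjusted p = 0.0267) and CLDN3 by 0.75 (SE 0.19, adjusted p = 0.0406), and CLDN1 was lower, at -0.57 (SE 0.085, adjusted p = 0.00303). CLDN7 had 1.43 and did not pass (adjusted p = 0.0742), CLDN18 had -0.70, and the other 4 lay between -0.15 and 0.22. The CLDN2 and CLDN3 calls rested on the transduced L101P library, without which they were 0.27 (adjusted p = 0.510) and 0.25 (0.644). This contrast shares its L101P libraries with the one against WT, so the lists of called genes are not independent. The 2 lines averaged here lay on opposite sides of WT in CLDN4, at 3.64 and 3.00 CPM in E292V and 8.74 and 9.30 in E690K, and no member was called without the E292V pair. With the labels of the pair labelled KO exchanged, CLDN1 and CLDN4 remained called.

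Transduction itself was compared over the 5 lines, each line serving as its own block. None of the 10 genes was called (edgeR, 0% of all genes, 1236 genes at an unadjusted p under 0.05). CLDN2 had the lowest p among the members, at a log2 change of 0.46 (SE 0.14, edgeR adjusted p = 0.465). Between the 2 libraries of a line CLDN2 changed by 1.19 in L101P, 0.56 in E292V, 0.38 in WT and 0.26 in the line labelled KO, and by -0.19 in E690K, so it was higher in 4 of 5 lines as labelled, and in 3 of 5 with the labels of the doubted KO pair exchanged, when the fitted change was 0.35. CLDN4 had 0.23 (adjusted p = 0.829) and turned to -0.068 under that exchange, and the other 8 lay between -0.081 and 0.15. CLDN18 differed by 1.83 within E292V, on low counts. The change on transduction in the 4 edited lines minus that in WT passed for 0 of 10 genes (edgeR, 0% of all genes), with 0 members and 597 genes at an unadjusted p under 0.05. The members' values lay between -0.92 for CLDN7 (SE 0.83) and 1.08 for CLDN18 (SE 1.36), both on low counts.

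**Figure D3:**
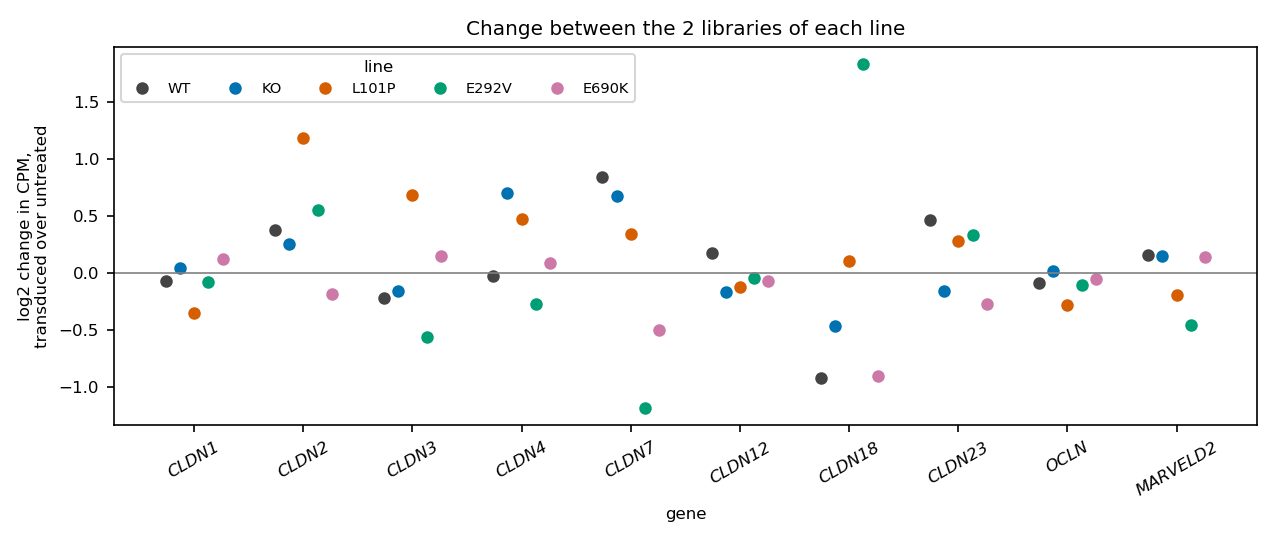
Log2 change in CPM between the transduced and the untreated library of each line on the vertical axis, by gene on the horizontal axis; each point is 1 line, with no replicate. CLDN2 in L101P stands at 1.19 and CLDN18 in E292V at 1.83.

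CLDN2, CLDN3, CLDN4 and CLDN7 ran together over the 10 libraries, which share lines in 5 pairs, and CLDN1 ran against them. Pearson's r of log2 CPM was 0.90 between CLDN4 and CLDN7, 0.81 between CLDN3 and CLDN4, 0.79 between CLDN3 and CLDN7 and 0.70 between CLDN2 and CLDN4. The weakest pair of these 4 genes was CLDN2 and CLDN3 at 0.59. That was below CLDN2 with CLDN23 (0.65) and CLDN7 with MARVELD2 (0.70), which lie outside the group. CLDN1 had -0.88 for CLDN7, -0.86 for CLDN4, -0.84 for CLDN3, -0.84 for CLDN2 and -0.70 for CLDN23, and 0.69 with OCLN. The value largest in size was -0.96, between the low-count CLDN18 and MARVELD2. These are descriptions of 10 libraries. The transduced L101P library held the highest or lowest value for 7 of the 10 genes, the transduced E292V library for 5 and the untreated E292V library for 4. Among the 12965 genes averaging 1 CPM or more, those most alike in pattern were JUND, SLC16A5 and PPP1R16B for CLDN3 (r = 0.98 each), AP000439.2, SPG11 and CAST for CLDN4 (0.98 each), TRABD2A, IL11 and PSMD6 for CLDN1 (0.96, 0.96 and 0.95) and RIOK3, IFT74 and CALU for CLDN2 (0.96, 0.96 and 0.95). Each set was picked as the 3 highest of 12965 correlations over 10 libraries, so these values of r are not a test.

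**Figure D4:**
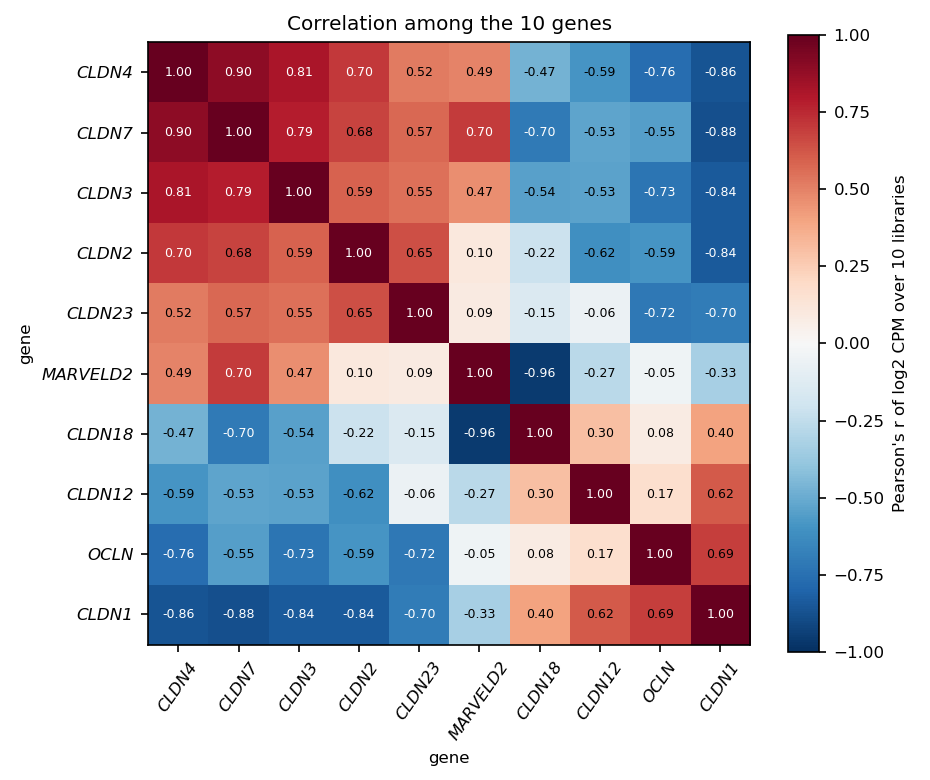
Pearson's r of log2 CPM over 10 libraries for each pair of the 10 genes, both axes listing genes and colour giving r from -1 to 1. CLDN4, CLDN7, CLDN3 and CLDN2 are positive among themselves, with CLDN1 negative against each.

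Of the other 16 claudins in the table, CLDN15 stood at 14.3 to 21.1 CPM and the other 15 at no more than 0.69 CPM, and 5 of them (CLDN8, CLDN17, CLDN22, CLDN25 and CLDN34) were at 0 in all 10 libraries. Of these 16 genes 8 were tested, and edgeR called 0 of them in each comparison. The partners of the claudins at the junction, 31 tested of 34 listed scaffold, adhesion and polarity genes, gave 1 lower in the line labelled KO (0.99% of all genes were lower), 1 lower in L101P (1.61%), 0 in E292V (0.756%) and 3 lower in E690K (2.33%). A single gene of 31 is close to those shares. CGNL1, the paracingulin scaffold, was lower by 0.98 in the line labelled KO (adjusted p = 0.00968), 1.04 in L101P (0.00526) and 1.70 in E690K (2.1e-04). CGNL1 stood at 8.94 and 15.9 CPM in WT and at 3.34 and 3.76 in E690K. In E690K the cingulin gene CGN (-0.66, adjusted p = 0.0277) and the polarity gene PARD3 (-0.30, 0.0268) were also lower. TJP3, which encodes the scaffold ZO-3, was higher in L101P than in the mean of the other pair (0.92, adjusted p = 0.0171). TJP1, encoding ZO-1, was at 275 to 405 CPM.

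Among 14 tested adherens-junction and claudin-binding genes, EPCAM, whose protein binds CLDN7 and CLDN1, was higher in the line labelled KO (1.25, adjusted p = 0.00434) and in E690K (0.71, 0.0327). NECTIN1, an adhesion receptor, was higher in L101P (0.52, adjusted p = 0.0142), and no gene of this list was called in E292V. Of all genes, 1.8% were called in the line labelled KO, 3.94% in L101P, 5.38% in E690K and 1.05% in E292V. Beside those shares, a single gene of 14 in a line says little about the list. Against the mean of E292V and E690K, L101P had more NECTIN1 (0.49, edgeR adjusted p = 0.00583) and less CDH2, the N-cadherin gene (-1.17, 0.0308). With the untreated library first, CDH2 stood at 53.1 and 107.9 CPM in E292V, 31.9 and 35.3 in E690K, and 28.6 and 15.2 in L101P. The high E292V values thus carried much of the CDH2 difference, which ranged from -2.01 to -0.53 with pairs or libraries left out. Of 20 tested transcription factors and proteases known to act on claudins, KLF4, a factor of epithelial differentiation, was higher in the line labelled KO (0.48, adjusted p = 0.0431), in L101P (0.66, 0.00623) and in E690K (0.73, 0.00185). The whole list gave 1 gene higher and 1 lower in the line labelled KO, 1 higher in L101P, 0 in E292V, and 2 higher and 3 lower in E690K, beside 1.8%, 3.94%, 1.05% and 5.38% of all genes called in either direction. A single gene of 20 in L101P is close to that share, and the called genes not named here averaged under 1 log2 CPM. In E690K the repressor TWIST1 (-1.39), GRHL3 (-1.05) and the epithelial factor ELF3 (-0.46) were lower. L101P against the mean of E292V and E690K had 4 genes of this list higher, among them FOXA1 (0.71), ELF3 (0.59) and KLF5 (0.49). It had 1 lower, the E-box repressor SNAI1 (-1.12). Of all genes tested, 3.75% were higher and 2.04% lower in that contrast. Any difference among the 5 lines passed for 6 of 31 junction partners, 4 of 14 adhesion genes and 13 of 20 factors and proteases, against 13% of all genes. In L101P against WT the median log2 fold changes of these 3 lists were 0.048, 0.014 and 0.13, against -0.014 over all genes tested. The last of these turned to -0.10 over the 13 of its 20 genes averaging at least 1 log2 CPM.

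Of the 21 pathway calls with values above, 2 passed in every alternative run: CGNL1 in E690K and ELF3 in L101P against the mean of the other pair. SNAI1 passed in 9 of 20 and KLF4 in the line labelled KO in 11 of 19. The 7 fibroblast markers summed to 78.2 and 121 CPM in the E292V libraries, against 16.1 to 47.8 elsewhere. That sum was mostly COL1A1, and 5 of the 7 markers had a median under 1 CPM, so it says little about fibroblasts. The part of this sum in the CLDN3 and CLDN4 values of E292V was not tested. Endothelial markers summed to 0.23 to 1.29 CPM and immune markers, mostly CD68, to 23.4 to 49.2 CPM over the 10 libraries.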

How the data were processed

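RNA sequencing covered 10 A549 libraries, 1 per line and treatment. The authors deposited 1 table of whole-number read counts per gene, per the file headers. GRCh38, featureCounts, Subread, edgeR and limma are named in the submitters' processing notes. Versions, annotation and strand setting are not given in the sources used here. All 10 columns were used. Even values made up 81.4% of counts from 1 to 10, as when both mates of a pair are counted, so counting intervals (95% Wilson) used the count divided by 2. They cover counting error only.

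Levels are CPM, counts over the library total. Correlations used log2 CPM over TMM-scaled totals of the tested genes, with a prior count of 2. Counts were tested in R 4.3.3 with edgeR 4.0.16 (quasi-likelihood F test, TMM factors 0.972 to 1.03, filterByExpr, 17978 genes, line plus vector, 4 residual degrees of freedom). DESeq2 1.42.0 was an alternative. Line is the replicate block of the vector comparison, since the libraries of a line share that line. In simulated counts for L101P against WT over 17163 genes, 95% of 2-fold changes were recovered. Every simulated gene had the same dispersion, 0.0168, and no line or treatment difference beyond those planted. The changes were planted only in genes above 1 CPM, so the share does not hold for noisier genes or for CLDN7 and CLDN18. All 10 genes are reported in each comparison, by value or by range. Of each pathway list, called genes with an average log2 CPM of at least 1 are named, at most 3 per direction. The members and lists were chosen with earlier results of these data known.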

Additional observations from a re-analysis of the deposited data

How the results depend on the processing

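Of 32 named calls, 4 passed under every alternative run and none changed sign. Leaving out each line pair and, as an alternative chosen after seeing the data, each single library, the number of the 10 genes called ranged from 0 to 3 for the line labelled KO, 0 to 4 for L101P, 0 to 2 for E292V, 0 to 2 for E690K, 2 to 5 for any line difference, 0 to 5 for L101P against the mean of E292V and E690K, and 0 to 0 for both vector comparisons. With 1 library left in a line, that library is assumed to vary like the others. The vector effect within WT could not be fitted with a WT library left out. Without the filter on low counts 3 genes were called in the line labelled KO, 2 in E292V, 2 in E690K and 1 on transduction. Of all genes, 4.05%, 2.73%, 6.84% and 0.977% were called in that run, in the same order. DESeq2 called 1 in E292V (2.39% of all genes) and 1 in E690K (8.14%), and halved counts 1 in E690K (6.41%). DESeq2 lost CLDN2 for any line difference (adjusted p = 0.0698) and for L101P against the mean of the other pair (0.0744). It called CLDN7 in both, where 19.2% and 8.21% of all genes were called. With the labels of the pair labelled KO exchanged, 2 were called for any line difference (9.48% of all genes). Under that exchange 2 were also called for L101P against the mean of the other pair (4.07%). The cause was not tested. Without the replicate block, that is without line as a term for pairing, 0 of 10 genes were called on transduction, as with it, and CLDN18 changed sign to 0.030.

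Sign changes touched only values that had not passed. With the labels exchanged they were MARVELD2 in E292V (-0.0015), on transduction CLDN4 (-0.068), CLDN7 (-0.21), CLDN12 (0.036) and CLDN18 (0.11), and for the edited-minus-WT vector effect CLDN1 (-0.0024), CLDN2 (-0.040) and CLDN4 (-0.054). The remaining sign changes came from left-out pairs or libraries. For E690K against WT the log2 ranges were CLDN1 -0.22 to 0.0053, CLDN12 -0.14 to 0.12, CLDN18 -0.83 to 0.41, CLDN23 -0.28 to 0.22, CLDN3 -0.16 to 0.098, OCLN -0.053 to 0.0025. For transduction the log2 ranges were CLDN1 -0.092 to 0.022, CLDN12 -0.079 to 0.0085, CLDN18 -0.54 to 0.17, CLDN3 -0.18 to 0.14, CLDN7 -0.084 to 0.36, MARVELD2 -0.066 to 0.087. For the edited-minus-WT vector effect the log2 ranges were CLDN1 -0.031 to 0.12, CLDN2 -0.15 to 0.32, OCLN -0.038 to 0.056. For E292V against WT the log2 ranges were CLDN12 -0.15 to 0.10, CLDN18 -1.23 to 1.16, CLDN2 -0.0074 to 0.15, CLDN7 -1.38 to 0.13, MARVELD2 -0.26 to 0.25. For the line labelled KO against WT the log2 ranges were CLDN12 -0.25 to 0.018, CLDN23 -0.037 to 0.37. For L101P against the mean of E292V and E690K the log2 ranges were CLDN18 -1.09 to 0.10, MARVELD2 -0.054 to 0.20, OCLN -0.30 to 0.00092. For L101P against WT the log2 ranges were CLDN23 -0.15 to 0.25, CLDN3 -0.10 to 0.80, OCLN -0.12 to 0.067. For L101P against WT, the standard errors of CLDN7 and CLDN18 were 0.51 and 0.84, against 0.21 for CLDN4.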
